A study of Mus musculus with 11 samples.

Results

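The BCL2 family of apoptosis regulators was examined in a murine cell model of melanoma progression in which cells repeatedly survived the loss of attachment. The members were 10 genes chosen by name, the antiapoptotic Bcl2, Bcl2l1 and Mcl1, the BH3-only genes Bcl2l11, Bmf, Bbc3, Bid and Bad, and the effectors Bax and Bak1. All 10 had a value in every library, among 14272 genes in all. Total RNA of 4 cell lines was sequenced in 11 libraries. Melan-a (2 libraries, replicates 2 and 3) is a line of immortalized, nonmalignant mouse melanocytes with an epithelial phenotype, grown with PMA, a phorbol ester, at 200 nM and with serum at 5%. The lines 4C (pre-malignant, mesenchymal-like), 4C11- (non-metastatic melanoma, mesenchymal-like) and 4C11+ (metastatic melanoma, epithelial) have 3 libraries each, descend from melan-a through cycles of blocked adhesion and were grown in the same medium without PMA. Each derived line is 1 line, and the effect of PMA cannot be told apart from the step from melan-a to any of them. The labels describe the replicates as separate cultures, so the spread between them is that of cultures of 1 line.

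BCL2 proteins control the mitochondrial pathway of apoptosis. The effectors BAX and BAK permeabilize the outer mitochondrial membrane and release cytochrome c, which starts the caspase cascade, while BCL2, BCL-XL (the product of Bcl2l1) and MCL1 bind and restrain them. BH3-only proteins sense damage and act upstream, as activators or by occupying the antiapoptotic proteins. Anoikis is apoptosis that follows the loss of contact with the matrix. BIM (the product of Bcl2l11) and BMF are the BH3-only proteins best known for it, BIM through integrin, growth factor and ERK signalling and BMF through its release from the actin cytoskeleton. Cells of the melanocyte lineage and melanomas are known to depend on BCL2, BCL-XL and MCL1 to different degrees.

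Values are the deposited log2 CPM, counts scaled to the total of the library on a log2 scale, and n is the number of libraries of a line. The libraries share their highest value, as after quantile normalization, so CPM here are those of the deposited values. The steps between low values gave depths of approximately 3500000 and 5820000 reads for melan-a, and of 4070000 to 7420000 for the derived lines. These depths are rough, since they take the values as plain CPM. Replicates of a line had r = 0.888 to 0.981 across all genes, with the lowest value between 4C11- replicates 1 and 3 and 0.907 between the melan-a libraries, whose markers also differed. The 10 melanocyte markers summed to 1966 CPM in melan-a replicate 2, 9209 in replicate 3, 11312 to 13609 in 4C11+, and only 4.03 to 12.9 in 4C and 4C11-, where 4 to 7 of them were at 3 reads or fewer. Tyr, the tyrosinase gene that defines pigment cells, was at 3 reads or fewer in all 6 libraries of 4C and 4C11- and also in melan-a replicate 2. On the log2 scale Tyr was at only 1.29 (13 reads) in melan-a replicate 3 and at 8.39 to 8.70 in 4C11+. The 4 fibroblast markers with a row summed to 1968 to 2630 CPM in the mesenchymal-like lines, 25.8 to 45.0 in 4C11+, 19.8 in melan-a replicate 3 and 206 in melan-a replicate 2. Cd68, the leukocyte marker with a row, was at 81.6 CPM in melan-a replicate 2 and at 3.43 to 7.54 in the other libraries. The sum of the epithelium markers went against the label epithelial, which is kept here as the name of the groups. The 3 with a row (Krt8, Krt18 and Cdh1) summed to 0.950 to 4.97 CPM in melan-a and 4C11+ and to 203 to 678 in the mesenchymal-like lines, nearly all of it Krt18. Cdh1, at 2 to 19 reads, went with the label on the log2 scale for melan-a (1.21 and 0.06) against 4C (-2.01 to -0.70). It did not for 4C11+ (-0.70 to 0.44) against 4C11- (0.42 to 1.36). Cdh5, the endothelium marker with a row, was at 92.9 to 172 CPM in 4C11- and at 16.1 or less elsewhere. The part of these differences in the results was not tested, and in bulk RNA fewer cells with a transcript cannot be told apart from less transcript in each cell. Called differences of the members from melan-a, and those of Bmf and Bcl2l11, are also given without replicate 2. The fit without it takes the lone melan-a library to vary like the other lines.

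The transcripts that varied most between the lines were those of BMF and BIM, and those that varied least were Bcl2 and Bad. An F-test over the 4 lines (limma, Benjamini-Hochberg adjustment over all genes, adjusted p under 0.05) called 6 of the 10 members, and it called 36.1% of all genes. The called members were Bcl2l11 (adjusted p = 0.00123), Bid (0.00124), Bcl2l1 (0.00159), Bax (0.00654), Bmf (0.0104) and Bbc3 (0.0187). Bak1 (0.0594), Mcl1 (0.274), Bcl2 (0.495) and Bad (0.931) did not pass. The highest and lowest line mean were 3.52 apart for Bmf on the log2 scale, 2.52 for Bcl2l11, 2.14 for Bbc3, 2.09 for Bid, 1.42 for Bcl2l1, 1.38 for Bax, 0.96 for Bak1, 0.66 for Mcl1, 0.64 for Bcl2 and 0.18 for Bad. The median of these ranges was 1.40 over the members and 1.18 over all genes.

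Levels of different genes were compared per kilobase of exon, as line means of log2 CPM per kilobase. Mcl1 had the highest level of the 10 members in melan-a (5.63), 4C (5.23) and 4C11- (5.39), and Bax had the highest in 4C11+ (6.06), followed there by Mcl1 (5.89) and Bak1 (5.60). Bcl2l1 was next to Mcl1 in 4C (5.14) and 4C11- (5.15), and lower in melan-a (3.73) and 4C11+ (4.07). Bcl2 was low on this scale in every line, from 1.10 in 4C to 1.74 in 4C11-. The lowest level was that of Bcl2 in melan-a (1.62), Bbc3 in 4C (0.87) and 4C11- (0.46), and Bcl2l11 in 4C11+ (0.50).

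**Figure D1:**
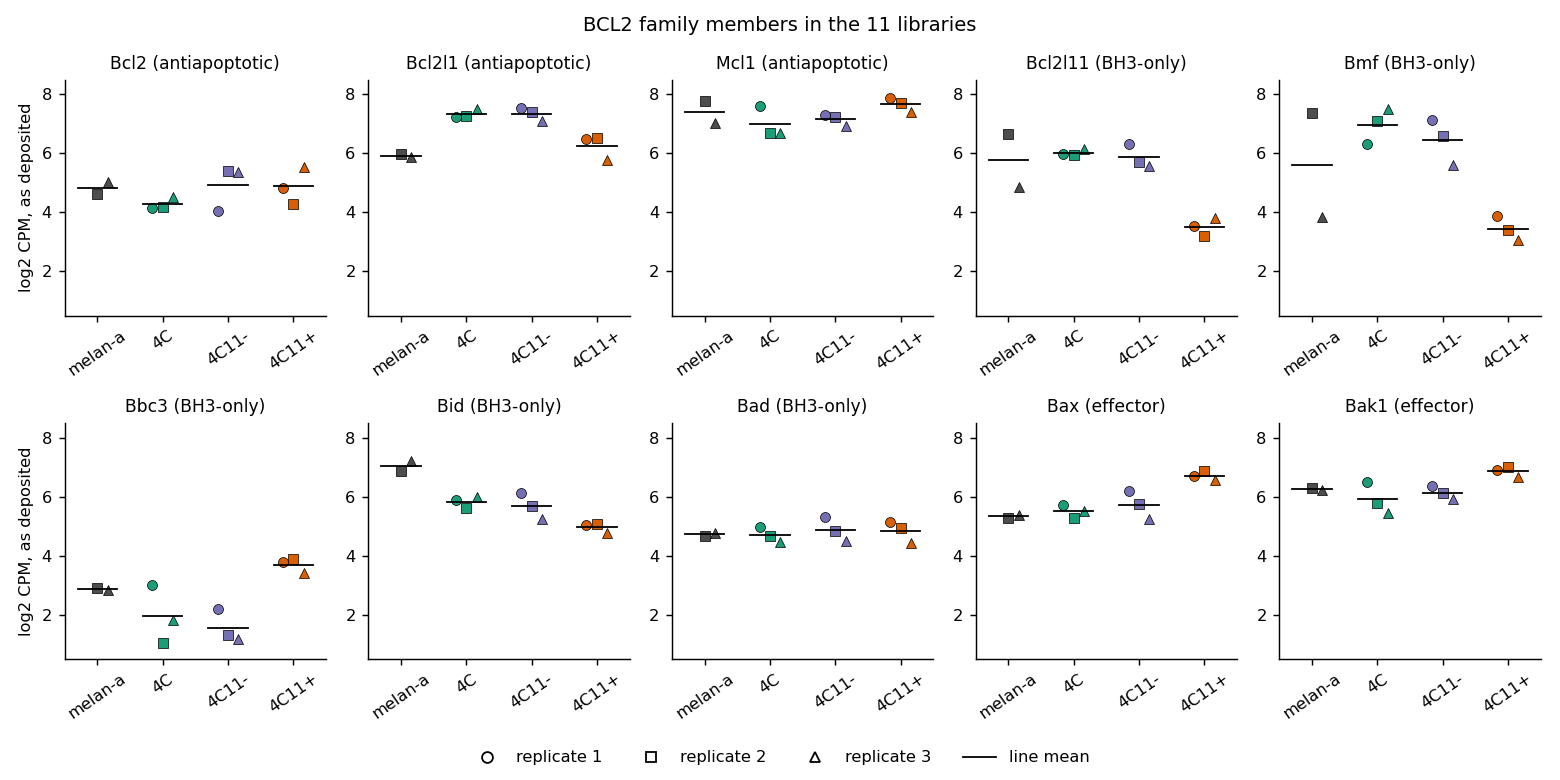
Values of the 10 members in the 11 libraries, as deposited (log2 CPM), with 1 panel per gene, a symbol per replicate number and a bar at the line mean. Bcl2l11 and Bmf have their lowest line mean in 4C11+, and Bax and Bak1 sit highest there. Bmf in melan-a replicate 3 (3.84) lies within the range of 4C11+ (3.06 to 3.88), and the melan-a libraries lie 3.53 apart in Bmf.

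Among the antiapoptotic members, Bcl2l1 followed the phenotype of the lines. Bcl2l1, which encodes BCL-XL, measured 5.98 and 5.87 in melan-a replicates 2 and 3, 7.24, 7.26 and 7.50 in 4C, at 7.55, 7.40 and 7.09 in 4C11-, and at 6.49, 6.53 and 5.79 in 4C11+. All 6 libraries of the mesenchymal-like lines were above all 5 of the epithelial lines. It was 2.65-fold higher in 4C than in melan-a (log2 difference 1.41 ± 0.27, SE, adjusted p = 0.00363, and 2.76-fold without melan-a replicate 2), was 2.68-fold higher in 4C11- (adjusted p = 0.00356, and 2.79-fold without it), and fell by 1.08 ± 0.24 in 4C11+ against 4C11- (adjusted p = 0.00514). The line means of 4C11- and 4C differed by 0.01 (95% interval -0.51 to 0.53), and those of 4C11+ and melan-a by 0.34 (-0.24 to 0.92, adjusted p = 0.417). Joined by phenotype, the mesenchymal-like lines were 2.37-fold above the epithelial lines (adjusted p = 0.000245), and 2.42-fold without melan-a replicate 2.

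Mcl1, whose short-lived product restrains BAK and binds BIM, was at 7.77 and 7.04 in melan-a, at 7.61, 6.69 and 6.70 in 4C, at 7.32, 7.25 and 6.93 in 4C11- and at 7.89, 7.70 and 7.40 in 4C11+. The lines overlapped, and no pairwise comparison passed the threshold. The widest difference was 0.66 between 4C11+ and 4C (95% interval 0.02 to 1.30, adjusted p = 0.106). Bcl2, the founding antiapoptotic gene and one known to be activated by MITF in melanocytes, was at 4.61 and 5.03 in melan-a, at 4.15, 4.19 and 4.54 in 4C, at 4.06, 5.39 and 5.36 in 4C11- and at 4.83, 4.29 and 5.53 in 4C11+. Libraries of the same line were up to 1.34 apart, more than any 2 line means, and no comparison passed. The interval of the difference between mesenchymal-like and epithelial lines was -0.90 to 0.43 for Bcl2.

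The BH3-only genes known from anoikis were low in the metastatic line. Bmf, whose product is released from myosin motors when cells detach, was at 6.31, 7.11 and 7.51 in 4C, at 7.14, 6.61 and 5.62 in 4C11-, and at 3.88, 3.41 and 3.06 in 4C11+, where it rested on 43 to 63 reads. Melan-a was split, with 7.37 in replicate 2, at the level of the mesenchymal-like lines, and 3.84 in replicate 3 (about 90 reads), at the level of 4C11+. Only 2.13% of all genes lay as far apart between these 2 libraries. Bmf fell by 3.52 ± 0.73 in 4C11+ against 4C, which is 11.5-fold (adjusted p = 0.0032), and by 3.01 ± 0.73 against 4C11- (8.03-fold, adjusted p = 0.00849).

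Comparisons of Bmf with melan-a turned on replicate 2. With both libraries, Bmf was 1.37 ± 0.81 higher in 4C than in melan-a (adjusted p = 0.314) and 2.15 ± 0.81 lower in 4C11+ than in melan-a (adjusted p = 0.0973), and neither passed. Without replicate 2 it was 8.80-fold higher in 4C (adjusted p = 0.00473) and 6.14-fold higher in 4C11- (adjusted p = 0.0143) than in melan-a, while 4C11+ and melan-a differed by -0.39 (adjusted p = 0.742). The joined mesenchymal-like lines were above the epithelial lines either way, 4.56-fold with replicate 2 (adjusted p = 0.00989) and 8.41-fold without it.

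Bcl2l11, the gene of BIM, was at 6.67 and 4.86 in melan-a, at 5.98, 5.96 and 6.14 in 4C, at 6.31, 5.71 and 5.59 in 4C11-, and at 3.53, 3.20 and 3.80 in 4C11+ (37 to 82 reads). The 3 libraries of 4C11+ were below the other 8. It fell by 2.52 ± 0.40 in 4C11+ against 4C (5.73-fold, adjusted p = 0.000576), by 2.36 ± 0.40 against 4C11- (adjusted p = 0.000976) and by 2.26 ± 0.45 against melan-a (4.78-fold, adjusted p = 0.00644). Without melan-a replicate 2, again the higher of the pair, the last difference was 2.56-fold (adjusted p = 0.0491). With both melan-a libraries, Bcl2l11 was 1.20-fold higher in 4C (adjusted p = 0.783) and 1.07-fold higher in 4C11- (adjusted p = 0.920) than in melan-a. Without replicate 2 these values were 2.24-fold (adjusted p = 0.0670) and 2.01-fold (adjusted p = 0.118), so that this library moved them by more than 1.5 times, and none of them passed.

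Bmf and Bcl2l11 varied together over the 11 libraries (Pearson r = 0.935, Spearman rho = 0.900), the closest pair among the 10 members. These points share 4 lines, and the deviations from the line means, in which the melan-a pair weighs most, had r = 0.868 over the 11 libraries and 0.475 over the 9 libraries of the derived lines. In the plot of Bmf against Bcl2l11, melan-a replicate 2 lies among the mesenchymal-like libraries and replicate 3 nearer to 4C11+. The genes most like Bmf over the 11 libraries were Sun2, a nuclear envelope protein gene (r = 0.983), Fcgrt, the Fc receptor that recycles IgG (0.979), and Tapbp, the tapasin of antigen loading (0.976). Those most like Bcl2l11 were Lmbr1l, a membrane receptor gene (0.988), Fgfr1, a fibroblast growth factor receptor (0.983), and Bmp1, a procollagen protease (0.982). The gene ranked 100 still had r = 0.934 with Bmf and 0.941 with Bcl2l11, so these genes are a few of many with such a pattern.

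**Figure D2:**
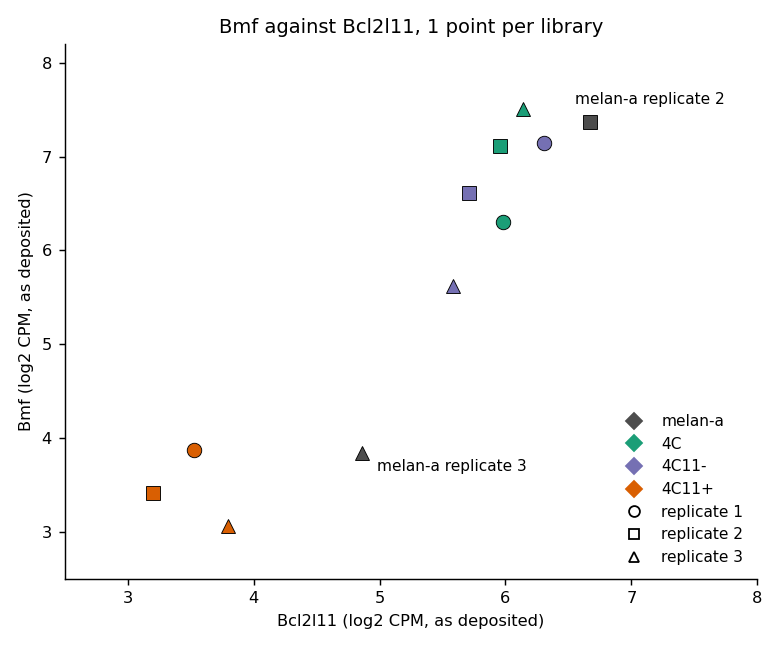
Bmf against Bcl2l11 in the 11 libraries, both as deposited (log2 CPM), colored by line, with a symbol per replicate number. The 4C11+ libraries lie at 3.20 to 3.80 for Bcl2l11 and 3.06 to 3.88 for Bmf, and melan-a replicates 2 and 3 lie at 6.67 and 7.37 and at 4.86 and 3.84.

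The sequences before the starts of Bmf and Bcl2l11, which varied together, and of Bax are shown so that their composition can be compared. The line mean of Bax was highest where those of Bmf and Bcl2l11 were lowest. The sequences shown are those of RefSeq in GRCm38.p6 before the most upstream RefSeq start, 5' to 3' on the strand of the gene. Bmf lies at chr2:118549688-118549936 (minus strand), Bcl2l11 at chr2:128125788-128126037 (plus strand) and Bax at chr7:45466899-45467148 (minus strand). The motifs searched on both strands were the forkhead core GTAAACA, the E-boxes CACGTG and CATGTG, the GC box GGGCGG, the AP-1 site TGANTCA and the p53 consensus decamer. Capitals mark matches, and no matches of different motifs overlap in these windows.
Bmf: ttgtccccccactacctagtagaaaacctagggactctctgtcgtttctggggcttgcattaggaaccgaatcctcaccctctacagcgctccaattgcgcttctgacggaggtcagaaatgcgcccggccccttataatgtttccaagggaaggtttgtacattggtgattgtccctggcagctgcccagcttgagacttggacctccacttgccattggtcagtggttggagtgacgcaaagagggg
Bcl2l11: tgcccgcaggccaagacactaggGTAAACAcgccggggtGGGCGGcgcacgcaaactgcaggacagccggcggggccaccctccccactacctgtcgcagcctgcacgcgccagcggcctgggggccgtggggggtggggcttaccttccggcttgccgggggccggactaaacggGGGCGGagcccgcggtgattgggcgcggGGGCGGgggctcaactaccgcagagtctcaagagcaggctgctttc
Bax: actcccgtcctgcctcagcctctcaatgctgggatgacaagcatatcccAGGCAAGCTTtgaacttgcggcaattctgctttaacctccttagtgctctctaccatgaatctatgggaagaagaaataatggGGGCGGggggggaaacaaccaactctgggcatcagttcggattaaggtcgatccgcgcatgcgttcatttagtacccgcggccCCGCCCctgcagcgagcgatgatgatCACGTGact
The Bcl2l11 window held 1 forkhead core, at -227 to -221 from the start, and 3 GC boxes, and 72.0% of its bases were G or C. The Bax window held 1 E-box CACGTG, at -9 to -4 from the start, 1 p53 decamer and 2 GC boxes. No motif of the 6 was matched in the Bmf window, of which 54.0% was G or C, against a median of 52.4% over 32851 promoters. Among these promoters, 3.17% held the forkhead core, 6.02% CACGTG, 12.3% CATGTG, 32.7% the GC box, 6.75% the AP-1 site and 7.13% the p53 decamer. Of the 10 members, 7 held a GC box, and the forkhead core, CACGTG and the decamer were each in 1. The windows of Bbc3, which is among the 7, and Bak1 lie wholly inside the annotated genes. The member windows ranged from 47.6% (Bcl2l1) to 76.4% (Bbc3) G or C, and the part of this in the GC boxes was not tested. A match describes letters, not binding.

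Of the other BH3-only genes, Bid was highest in melan-a and lowest in 4C11+. Bid, whose product is cleaved by caspase-8 and links death receptors to the mitochondria, was at 6.87 and 7.21 in melan-a, at 5.88, 5.61 and 5.98 in 4C, at 6.11, 5.68 and 5.23 in 4C11- and at 5.02, 5.09 and 4.76 in 4C11+. Melan-a was above and 4C11+ below every other library, while 4C and 4C11- overlapped. It fell by 1.22 ± 0.29 in 4C against melan-a (adjusted p = 0.0143), by 1.37 ± 0.29 in 4C11- (adjusted p = 0.00794) and by 2.09 ± 0.29 in 4C11+ (4.24-fold, adjusted p = 0.000712). Without melan-a replicate 2 the falls were by 1.39, 1.53 and 2.25, and all of them passed. Between 4C11- and 4C11+ the difference of -0.72 did not pass (adjusted p = 0.0550). Bid shares 628 exon bases with Bcl2l13 on the opposite strand. The library kit keeps the strand, and whether the counting used it is not given in the sources used here.

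Bbc3, the gene of PUMA and a p53 target, was highest in 4C11+. It was at 2.91 and 2.83 in melan-a, at 3.02, 1.04 and 1.83 in 4C, at 2.18, 1.30 and 1.16 in 4C11- and at 3.79, 3.88 and 3.40 in 4C11+, and rested on 15 to 61 reads per library. The 4C11+ libraries were above all others. Bbc3 rose 4.42-fold in 4C11+ against 4C11- (2.14 ± 0.49, adjusted p = 0.00634) and 3.32-fold against 4C (adjusted p = 0.0191). The latter call was lost without 4C replicate 2 or 3 or without 4C11+ replicate 1 or 2. Against melan-a the rise of 0.82 did not pass (95% interval -0.38 to 2.03, adjusted p = 0.341). Bad, whose product is inactivated by survival kinases, was at 4.66 and 4.78 in melan-a, 4.98, 4.67 and 4.45 in 4C, 5.30, 4.84 and 4.49 in 4C11- and 5.15, 4.95 and 4.43 in 4C11+. Its lines overlapped throughout, and its widest difference, 0.18 between 4C11- and 4C, had an interval of -0.47 to 0.82. Bad shares 524 exon bases with Gpr137 on the opposite strand.

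Both effectors were highest in the metastatic line. Bax was at 5.29 and 5.38 in melan-a, at 5.72, 5.27 and 5.51 in 4C, at 6.18, 5.74 and 5.26 in 4C11-, and at 6.70, 6.88 and 6.56 in 4C11+, without overlap between 4C11+ and the other lines. It rose by 1.38 ± 0.29 in 4C11+ against melan-a (2.61-fold, adjusted p = 0.00849), by 1.22 ± 0.26 against 4C (adjusted p = 0.00386) and by 0.99 ± 0.26 against 4C11- (adjusted p = 0.0127). Without melan-a replicate 2 the rise against melan-a was 2.53-fold and just missed the threshold, and without 4C11+ replicate 2 so did that against 4C11-. Melan-a, 4C and 4C11- did not differ beyond their spread in Bax, with adjusted p-values of 0.441 to 0.784. Bax shares 192 exon bases with Gm45808 on the same strand.

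Bak1 was at 6.28 and 6.22 in melan-a, at 6.48, 5.80 and 5.45 in 4C, at 6.37, 6.12 and 5.93 in 4C11-, and at 6.91, 7.00 and 6.68 in 4C11+, again with 4C11+ above the other 8 libraries. The smaller differences passed only against 4C (1.94-fold, 0.96 ± 0.27, adjusted p = 0.0174), a call that was lost in 4 of 18 alternatives, and not against 4C11- (0.73, adjusted p = 0.0581) or melan-a (0.61, adjusted p = 0.191). Bak1 shares 437 exon bases with Ggnbp1 on the opposite strand. In 4C and 4C11-, replicate 1 was the highest library in Bbc3, Bax, Bak1, Bad and Mcl1 alike. Over the 11 libraries Bak1 had r = 0.866 with Mcl1, 0.851 with Bbc3 and 0.827 with Bax, and Bcl2l11 and Bax had r = -0.798.

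Relative to Bcl2l1, Bax was most abundant and Bcl2l11 and Bmf were least abundant in 4C11+ by line means. Differences within a library are compared here only between lines, since gene lengths then cancel. Bcl2l1 minus Bax was 0.59 ± 0.15 (SD, n = 2) in melan-a, 1.83 ± 0.27 (n = 3) in 4C, 1.62 ± 0.23 (n = 3) in 4C11- and -0.45 ± 0.29 (n = 3) in 4C11+, and no libraries overlapped between 4C11+, melan-a and the mesenchymal-like lines. Bcl2l1 minus Bcl2l11 was 2.76 ± 0.69 in 4C11+, 1.31 ± 0.04 in 4C and 1.48 ± 0.22 in 4C11-, and -0.69 and 1.01 in melan-a replicates 2 and 3. The lowest 4C11+ library was above all others in this difference. Bcl2l1 minus Bmf was 2.82 ± 0.26 in 4C11+, 0.36 ± 0.51 in 4C and 0.89 ± 0.54 in 4C11-, and -1.39 and 2.03 in melan-a replicates 2 and 3. Mcl1 minus Bak1 stayed between 0.70 and 1.49 in the 11 libraries, with overlapping lines.

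**Figure D3:**
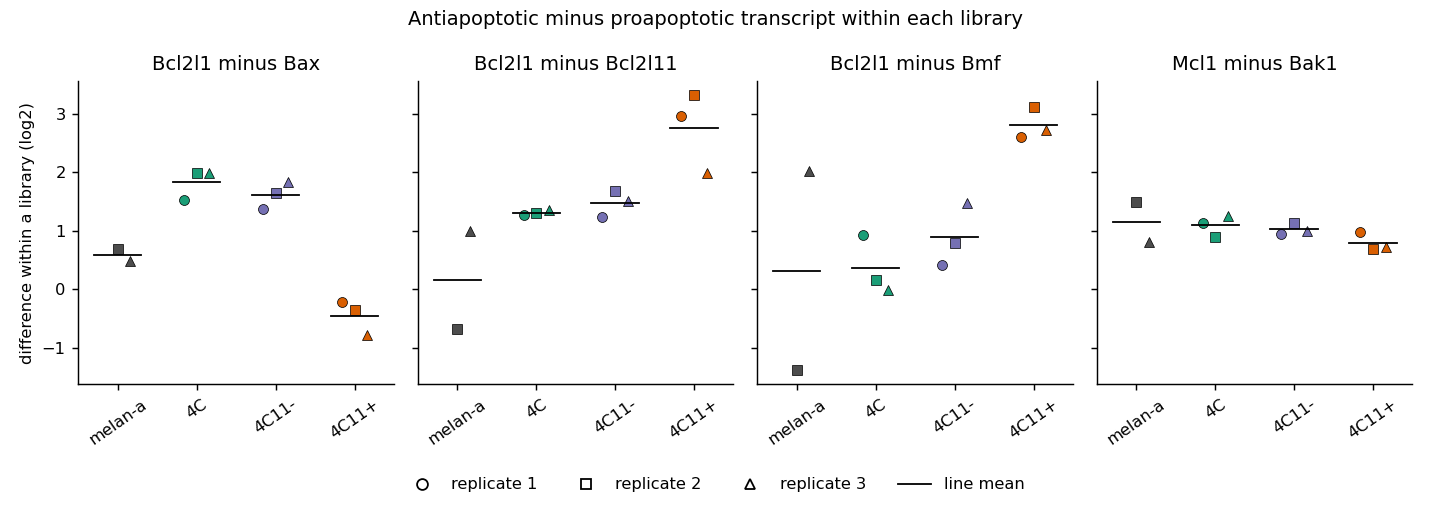
Difference (log2) between an antiapoptotic and a proapoptotic transcript in each of the 11 libraries by line, with a symbol per replicate number and a bar at the line mean. Bcl2l1 minus Bax is lowest in 4C11+ (-0.77 to -0.22), whereas Bcl2l1 minus Bcl2l11 (1.99 to 3.33) and Bcl2l1 minus Bmf (2.61 to 3.11) are high there.

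Which members changed at each step of the model was compared next. From melan-a to 4C, 1 member rose (Bcl2l1) and 1 fell (Bid), while over all genes 7.64% rose and 7.55% fell. The median difference was -0.18 over the members and -0.06 over all genes. Without melan-a replicate 2, Bmf passed as well. From 4C to 4C11-, limma called 0 members, 0 of them also at an unadjusted p under 0.05, and 1.26% of all genes rose and 0.406% fell (medians 0.09 and 0.01). From 4C11- to 4C11+, 2 members rose (Bbc3 and Bax) and 3 fell (Bmf, Bcl2l11 and Bcl2l1), beside 15.6% and 15.4% of all genes. The median of the members was -0.04 there and that of all genes 0.12.

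Against melan-a, 4C11- had 1 member higher (Bcl2l1) and 1 lower (Bid), beside 7.55% and 6.05% of all genes, and 4C11+ had 1 higher (Bax) and 2 lower (Bcl2l11 and Bid), beside 8.39% and 7.52%. The medians were 0.11 and 0.19 over the members and -0.07 and 0.03 over all genes. Comparisons with the same line share its libraries. Against 4C, the metastatic line had 3 members higher (Bbc3, Bax and Bak1) and 4 lower (Bmf, Bcl2l11, Bcl2l1 and Bid), beside 17.1% and 14.6% of all genes, with medians of 0.37 and 0.08. Of these, Bak1, Bbc3 and Bid lost the call, leaving 4 members, without 4C replicate 3, 4C11+ replicate 1 or 4C11+ replicate 2. Against the mean of the 3 other lines, 4C11+ again had 3 members higher and 4 lower, beside 18.3% and 15.8% of all genes and with medians of 0.14 and 0.08, and 4 were left without 4C11+ replicate 1.

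In that comparison Bmf was 7.44-fold lower (adjusted p = 0.00344, and 4.94-fold without melan-a replicate 2), Bcl2l11 5.20-fold (0.000243), Bid 2.33-fold (0.00123) and Bcl2l1 1.52-fold (0.0352), while Bbc3 was 2.96-fold higher (0.0120), Bax 2.29-fold (0.00136) and Bak1 1.70-fold (0.0200). Bcl2l1 was 0.34 higher in 4C11+ than in melan-a, and its call against the 3 lines was lost in 7 of 17 alternatives. The calls of Bbc3 and Bak1 were each lost in 2 of 17, without 4C11+ replicate 1 and without 4C11+ replicate 2. By phenotype, 3 members were higher in the mesenchymal-like lines (Bmf, Bcl2l11 and Bcl2l1) and 1 was lower (Bbc3, 2.88-fold, adjusted p = 0.00833), beside 14.3% and 15.3% of all genes, with medians of -0.24 and -0.09. The same 4 passed without melan-a replicate 2.

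Whether the mesenchymal-minus-epithelial difference was the same in both pairs of lines, 4C with melan-a and 4C11- with 4C11+, was tested as a difference of differences, a comparison added after the data were seen. It called 2 members, Bid and Bcl2l11, and 9.83% of all genes. Bid was lower in 4C than in melan-a and not lower in 4C11- than in 4C11+ (-1.94 ± 0.39, adjusted p = 0.0101). Bcl2l11 was 0.26 above melan-a in 4C and 2.36 above 4C11+ in 4C11- (-2.10 ± 0.60, adjusted p = 0.0486). Without melan-a replicate 2 Bcl2l11 was 1.16 above melan-a in 4C, and the difference of differences was -1.20 (adjusted p = 0.151). For Bmf it was -1.63 with replicate 2 and 0.13 without it, and neither passed.

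**Figure D4:**
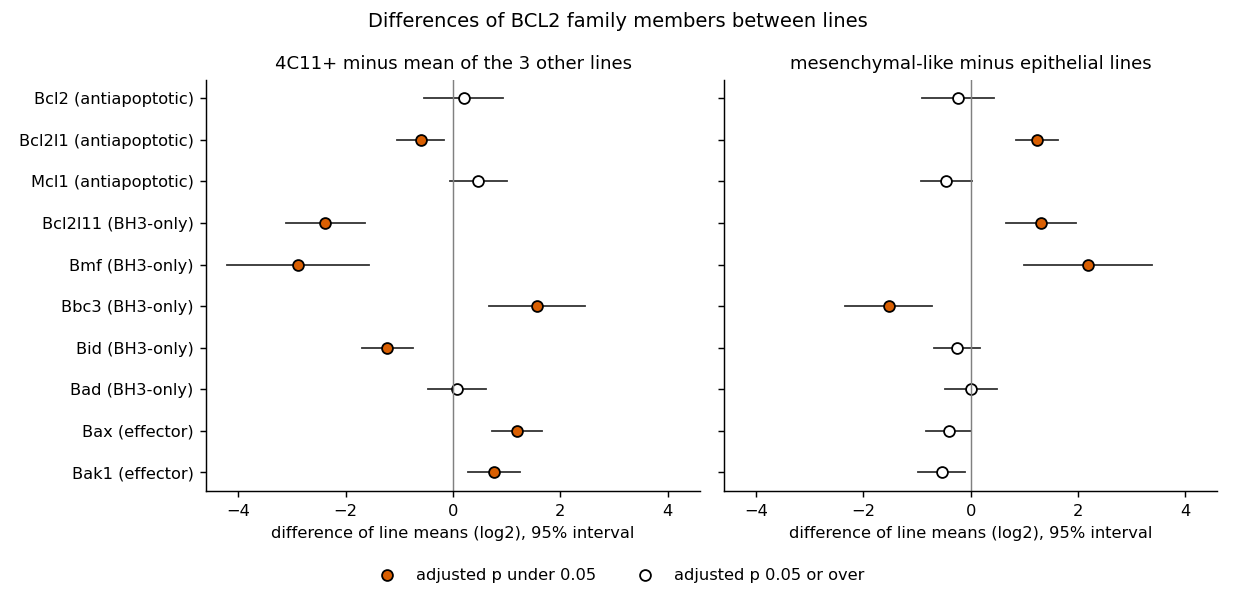
Differences of line means (log2) with 95% intervals from limma for the 10 members, 4C11+ minus the mean of the 3 other lines on the left and mesenchymal-like minus epithelial lines on the right, filled where the adjusted p is under 0.05. On the left 4 members lie below 0 and 3 above among the filled points, and on the right 3 lie above and 1 below.

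Other genes of the pathway were taken from 4 lists. Differences of 4C11+ from the 3 other lines are taken from their mean, as above. Of the 16 further BCL2 family genes, 6 had a row, and 3 passed the F-test, which called 36.1% of all genes. Bok, a BAX-like effector that acts without BH3-only activators, was at 4.15, 3.92 and 3.93 in 4C, at 5.70, 5.58 and 4.25 in 4C11-, at 1.60, 0.85 and 0.48 in 4C11+, and at 1.77 (13 reads) and -2.58 (0 reads) in melan-a replicates 2 and 3. It was higher in the mesenchymal-like lines (adjusted p = 0.000343). Bnip3l, a mitophagy receptor, was 1.23 lower in 4C11+ than in the 3 other lines (adjusted p = 0.000761), and Bcl2l13, also a mitophagy receptor, was 0.68 lower in the mesenchymal-like lines (adjusted p = 0.00484). The other 10 genes of this list, Pmaip1 (NOXA) and Bcl2a1a to Bcl2a1d among them, had no row and were not analysed here.

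Of 17 genes of the mitochondrial membranes, the apoptosome and its inhibitors, 6 passed the F-test, a share near the 36.1% of all genes. Cycs, the gene of cytochrome c, was at 7.63, 7.63 and 7.72 in 4C11+ and at 6.02 to 7.10 elsewhere, 1.18 higher in 4C11+ than in the 3 other lines (adjusted p = 0.00167). Vdac1, a channel of the outer membrane, was 0.84 higher (adjusted p = 0.00158). Birc2 (cIAP1) and Aifm1 (apoptosis-inducing factor) were each 1.21 higher in the mesenchymal-like lines (adjusted p = 0.000556 and 0.000466). Birc3 (cIAP2) was at 2.71 to 3.65 in those lines, at 1 or 2 reads in each 4C11+ library, and at 14 and 0 reads in melan-a replicates 2 and 3. Of the 17, 2 were higher and 3 lower in 4C11+ than in the 3 other lines, beside 18.3% and 15.8% of all genes.

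Among 27 regulators of BH3-only proteins and MCL1 with a row, 11 passed the F-test, beside 36.1% of all genes, and 5 were higher and 6 lower in 4C11+ than in the 3 other lines, beside 18.3% and 15.8%. Mitf, the melanocyte master regulator, was at 7.73 and 7.97 in melan-a and at 6.38, 6.23 and 8.76 in 4C11+, but at -0.70 to 1.14 in the mesenchymal-like lines (3 to 16 reads, adjusted p = 7.97e-07). The kinase gene Akt1, whose product inhibits BAD and the FOXO factors, was 1.69 higher in 4C11+ than in the 3 other lines (adjusted p = 1.41e-05). Ddit3 (CHOP), an activator of Bcl2l11 and Bbc3 under stress, was 2.18 higher (adjusted p = 0.00493), although its 4C11+ libraries ranged from 4.99 to 7.45. The survival kinase genes went apart, Pim2 being 1.28 higher (adjusted p = 0.00664) and Pim1 1.65 lower (adjusted p = 0.00439). Trp53 and Foxo3, named after their values were seen because Bax, Bbc3 and Bcl2l11 are known targets of their products, were 1.23 lower (adjusted p = 0.00802) and 0.08 lower (adjusted p = 0.853). Trp53 was at 4.65, 4.75 and 6.26 in 4C11+.

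Of 17 genes of anoikis signalling with a row, 10 passed the F-test, beside 36.1% of all genes. In the mesenchymal-like lines 7 were higher and 1 lower, beside 14.3% and 15.3% of all genes, with a median difference of 0.63 over the list and -0.09 over all genes. Against the mean of the 3 other lines, 0 were higher and 7 lower in 4C11+, beside 18.3% and 15.8% of all genes. The medians there were -0.70 over the list and 0.08 over all genes. Against melan-a alone, with both its libraries, 0 were higher and 2 lower (Igf1r and Sik1), beside 8.39% and 7.52% of all genes. Egfr, the receptor whose signal represses Bcl2l11, was at 4.03 to 5.13 in the mesenchymal-like lines, and Cav1, the caveolin of adhesion signalling, at 1.57 to 3.78. Dapk1, a kinase gene of detachment-induced death, was at 2.69 to 3.23 in 4C and 0.42 to 1.35 in 4C11-. These 3 genes were at 0 or 1 read in all 5 libraries of the epithelial lines. Igf1r, a survival receptor, was at 5.39 to 5.58 in 4C11+ and at 6.59 to 7.97 elsewhere, 2.01 lower in 4C11+ (adjusted p = 2.32e-05). Sik1, a kinase gene of the p53-dependent anoikis response, was 1.75 lower (adjusted p = 0.000558).

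**Figure D5:**
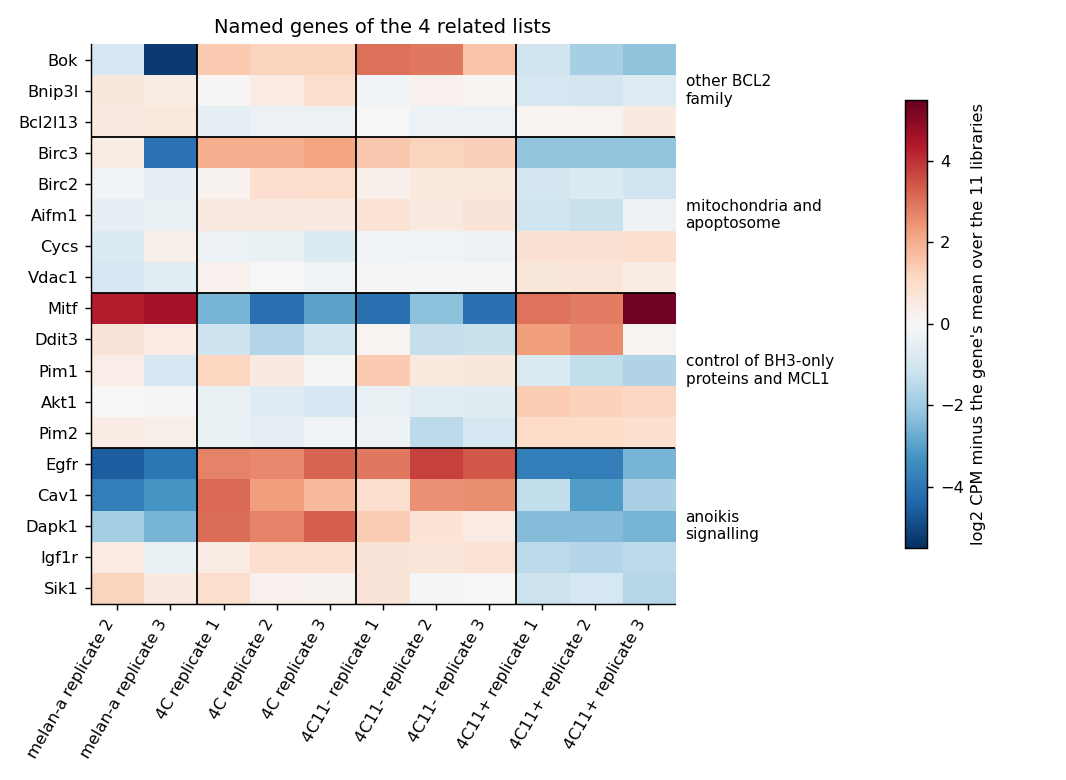
Values of the 18 named genes of the 4 related lists in the 11 libraries, as log2 CPM minus the mean of the gene over the libraries (red above, blue below), with lines between cell lines and lists. Egfr, Cav1 and Dapk1 are high in 4C and 4C11- and low in melan-a and 4C11+, Mitf shows the reverse, and Igf1r and Sik1 are low in 4C11+.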

How the data were processed

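Triplicate cultures of each line were the source of total RNA, and 11 libraries were used, with melan-a replicate 1 not analysed here. Sequencing was paired (2 × 100 nt), per the series' design text. By their Methods, the authors made stranded libraries after removal of ribosomal RNA, aligned the reads with STAR to the mouse genome of Ensembl 90, counted them with Rsubread, left out genes below 1 CPM unless 4 or more libraries reached it, and transformed the counts with voom. The submitters' processing notes name GRCm38 as the build and also Trimmomatic, and versions are not given in the sources used here. The deposited values are log2 CPM, and the 11 libraries share 1 highest value, as after quantile normalization. That step is not stated, and it would mask any global difference in RNA between lines.

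Depths were estimated from the value at 40 reads taken as plain CPM, and would be off after quantile normalization. Depth limits precision for low genes. Reads of a gene are the rank of its value among the distinct values of the library. They fall short where some counts are unused, as at high values. Markers at 3 reads or fewer were counted as such, and all genes entered the fits and sums with their deposited values. The tests came from limma 3.58.1 (R 4.3.3), with a mean per line over the 11 libraries, trended eBayes variances and p-values adjusted by Benjamini-Hochberg over 14272 genes at a threshold of 0.05, after the script was tested on simulated data. Of these genes, 24 had no symbol. Tables and figures used Python 3.11.15, pandas 2.3.3, NumPy 2.4.6 and Matplotlib 3.10.9. Lengths are merged exons of GENCODE M21.

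The members and lists were chosen with earlier results of these data known, so counts over them are descriptions. Named were all members, up to 5 genes per list with the widest range of line means among those past the F-test, and the 3 genes most correlated with each of the 2 members of widest range. Alternatives covered normalization, a filter at a mean of 1, a replicate block, the variance model, the samples fitted and leaving out each library.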

Additional observations from a re-analysis of the deposited data

Results flagged for a closer look

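Bmf in melan-a replicate 2 (7.37) lay far from the other 4 libraries of the epithelial lines, with a gap of 3.49 to the next, which is 0.810 of the range of the group. It was the only library to stand apart among 30 groups of libraries checked in the 10 members. For values of 1 normal distribution, chance alone gives such a mark in about 1 in 20 groups. These groups join lines and share libraries, so that rate need not hold here.

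The difference between mesenchymal-like and epithelial lines was not the same in both pairs of lines for Bcl2l11 (-2.10 ± 0.60, adjusted p = 0.0486) and Bid (-1.94 ± 0.39, adjusted p = 0.0101), by the test of the difference of differences in limma. The call of Bid held in all 17 alternatives computed for it, and that of Bcl2l11 was lost in 12 of 17.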

How the results depend on the processing

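Over the 32 called differences of members, 563 alternative values were computed, of which 521 kept direction and call, 42 kept the direction and lost the call and 0 reversed. The calls of Bcl2l1, Bmf and Bcl2l11 for 4C11+ against 4C and 4C11- and between the phenotypes held in every alternative. The fewest and most members called when 1 library was left out were 1 and 3 for 4C against melan-a, for 4C11- against melan-a and for the difference of differences, 4 and 7 for 4C11+ against 4C, 4 and 8 for 4C11+ against the 3 other lines, 4 and 6 for 4C11+ against 4C11- and for the phenotypes, 2 and 4 for 4C11+ against melan-a, 5 and 7 for the F-test, and 0 and 0 for 4C11- against 4C. Bid was lost from the first without melan-a replicate 3 or 4C replicate 2 and from the second without melan-a replicate 3. Fitting only the lines compared left 1 member for 4C11- against melan-a. The difference of differences called 1 member without the mean-variance trend. With array weights, 7 members passed between the phenotypes, with Bak1, Bax and Mcl1 added, but the estimation of these weights stopped before its tolerance was reached.

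The replicate block gave 6, 8 and 6 members for 4C11+ against 4C11-, 4C11+ against 4C and the phenotypes, 7 by F-test and 1 for the difference of differences, and left the other counts as they were. Whether same-numbered libraries of different lines share more than a number was not tested. Their deviations from the line means correlated over 0.1 in 8 of 15 pairs (median r = 0.147, range -0.226 to 0.388). Among differently numbered libraries this held for 11 of 30 pairs, with a median r of -0.0946.

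Counts over all genes moved by more than 1.5 times in these cases. For 4C11- against 4C, 238 genes became 93 to 320 when a library was left out, 143 with only those lines, 125 without low genes and 437 with array weights. For 4C11+, 2270 against melan-a became 1089 to 2864 and, with only those lines, 1446, and 4856 against the 3 other lines became 3001 to 5718 and, with array weights, 8904. Against 4C, 4528 became 10651 with array weights. For 4C11- against melan-a, 1940 became 843 with only those lines and 1182 with array weights. The F-test count of 5158 became 3417 to 5889 and, with array weights, 10449, and the 1403 of the difference of differences became 770 to 1934. The cause was not tested. Melan-a has 2 libraries, and depth limits Bbc3 and the 4C11+ values of Bmf and Bcl2l11, which rest on 15 to 82 reads a library.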
